A study of Mus musculus with 12 samples.

Results

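The genes described here are 44 genes of the unfolded protein response and the integrated stress response, measured by RNA sequencing in compressed and control macrophages. They were taken by symbol from a list of factors, sensors, enzymes and endoplasmic reticulum (ER) proteins that belong to these pathways. The list was chosen with earlier results of these data known. No measured value entered the matching of a symbol to a row except for Ddit3, where the annotation gave 2 IDs and the ID with more counts was used. All 44 symbols had an ID among the 56941 gene IDs of the count table, and all 44 were among the 15001 genes with enough counts to be tested.

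The cells were RAW264.7, a mouse macrophage line that was transformed with Abelson leukemia virus and is grown as a standard model of macrophages. In the compressed group (n = 6, labelled Weighted) an agarose cushion and a printed weight pressed on the cells at 0.14 kPa for 24 h. In the control group (n = 6, labelled Agarose) the cushion lay on the cells without a weight for the same 24 h. Both groups grew on porous inserts, so both carried the cushion and differed by the weight alone, and all results come from 1 cell line and 1 time point.

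The unfolded protein response is set off when unfolded proteins build up in the ER. PERK, IRE1 and ATF6 sense them in the ER membrane, and the genes they switch on encode chaperones, folding enzymes and the machinery that sends failed proteins to the proteasome. PERK also phosphorylates the translation factor eIF2α, as do the amino acid sensor GCN2 and other kinases, and this integrated stress response slows translation in general while the factor ATF4 is made and turns on genes for amino acid supply, tRNA charging and, through CHOP, cell death. In macrophages these pathways are known to be engaged by secretion, by inflammatory signals and by lack of nutrients.

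Total counts ranged from 33460807 to 39103987 in the compressed libraries and from 37948795 to 40463545 in the control libraries. Mitochondrial genes took 2.93% to 3.41% of the counts in compressed libraries and 3.03% to 3.52% in controls. The 8 macrophage markers examined were all expressed, with a summed level of 6645 to 7814 CPM (counts relative to the TMM-scaled library total) under compression and 5458 to 5866 CPM in controls. Lyz2 was the largest part of the sum, with a mean of 4204 CPM under compression and 2678 CPM in controls. The markers did not move together. In the test described below Itgam, Lyz2 and Adgre1 were higher under compression, Csf1r, Cd68 and Fcgr1 were lower, and Ptprc and Spi1 were not called. Over 12 markers of lymphoid, stromal, epithelial, endothelial and other myeloid cells the summed level was 0.996 to 1.54 CPM under compression and 0.694 to 1.05 CPM in controls, and Cd3e and Ncr1 were at 0 in every library. Compressed replicate 6 stood apart from the other 5 compressed libraries on the second principal component of the 500 most variable genes (-26.67, against 3.27 to 7.19), and values without it are given where a call, a direction or a size turned on it.

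Under compression the 44 genes split between both directions, and their changes were small. In edgeR's quasi-likelihood test, at an adjusted p of 0.05 or less over all tested genes, 7 rose, 13 fell and 24 were not called. The 7 that rose were 15.9% of the genes, where 24.5% of all tested genes were higher under compression, and the 13 that fell were 29.5%, where 21.9% of all tested genes were lower. The counts with all 12 libraries for each role group and list below stand beside these same shares of all tested genes. The genes that rose were Ddit3, Trib3, Ppp1r15a, Sars, Cebpg, Xbp1 and Hspa5. Over all 44 genes the median log2 fold change (compressed over control) was -0.030, beside 0.022 for all tested genes. The median size of the change, taken without sign, was 0.155, beside 0.257 for all tested genes. None of the 44 changed by more than 1 on the log2 scale, which 6.63% of tested genes did, and 2 changed by more than 0.5 (4.55%, beside 24.3% of tested genes). Levels here are relative to the library total. In bulk RNA a lower level can come from fewer cells of a kind or from less of that transcript per cell. These cannot be told apart here. Whether the 6 samples of a group were grown as separate cultures is not given in the sources used here. The p-values therefore describe spread from sample to sample, and that spread may be technical.

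**Figure D1:**
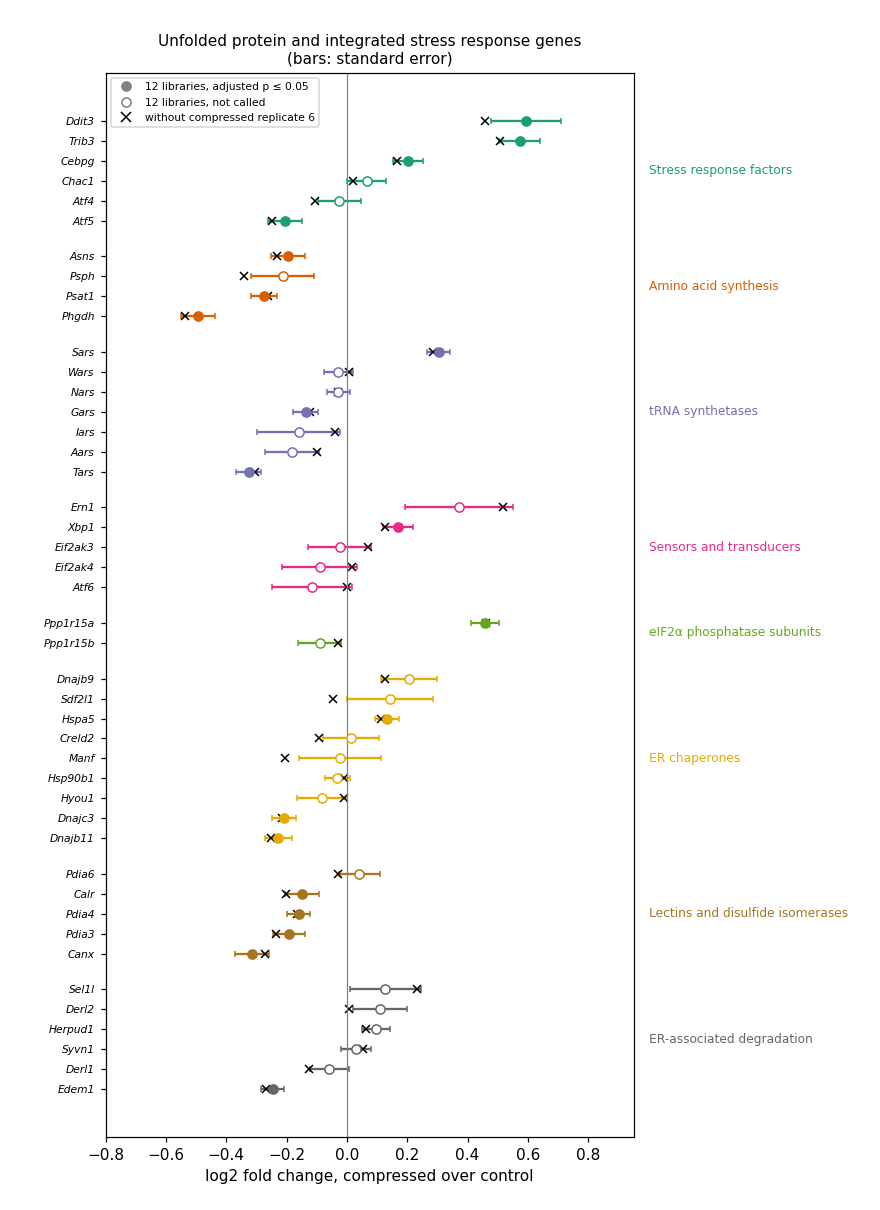
Log2 fold change, compressed over control, of the 44 genes, 1 row per gene, in 8 role groups named at the right. Circles are the values from all 12 libraries with their standard errors, filled where the adjusted p was 0.05 or less, and crosses are the values without compressed replicate 6. Ddit3, Trib3 and Ppp1r15a lie farthest to the right among the filled circles, and Phgdh lies farthest to the left at -0.49.

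The libraries of the 2 groups did not overlap for 17 of the 44 genes (38.6%), where 33.6% of all tested genes did not overlap. The 17 were the 7 genes called higher, 9 of the genes called lower, and Aars, which was not called. The other 4 genes that were called lower, Atf5, Gars, Calr and Pdia3, overlapped between the groups.

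Compressed replicate 6 lay outside the range of the other 5 compressed libraries for 39 of the 44 genes (88.6%, and 82.0% over all tested genes), above it for 24 and below it for 15. Its deviation followed the length of the gene. The rank correlation of the deviation with exon length was -0.67 across the 44 genes and -0.55 across 14647 genes of known length, as a description of 1 library. For each of compressed replicates 1 to 5 against the rest of those 5, it was -0.43 to 0.49 across the 44 genes. Across all genes of known length it was -0.25 to 0.17. Among the 22 shortest genes (1108 to 3745 bases of exon) the median deviation of replicate 6 was 0.24 on the log2 scale, and among the 22 longest (4032 to 9282 bases) it was -0.15. Its mitochondrial share (3.00%) and total count (39103987) were within or above the range of the other compressed libraries, and the part of RNA quality in these deviations was not tested.

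**Figure D2:**
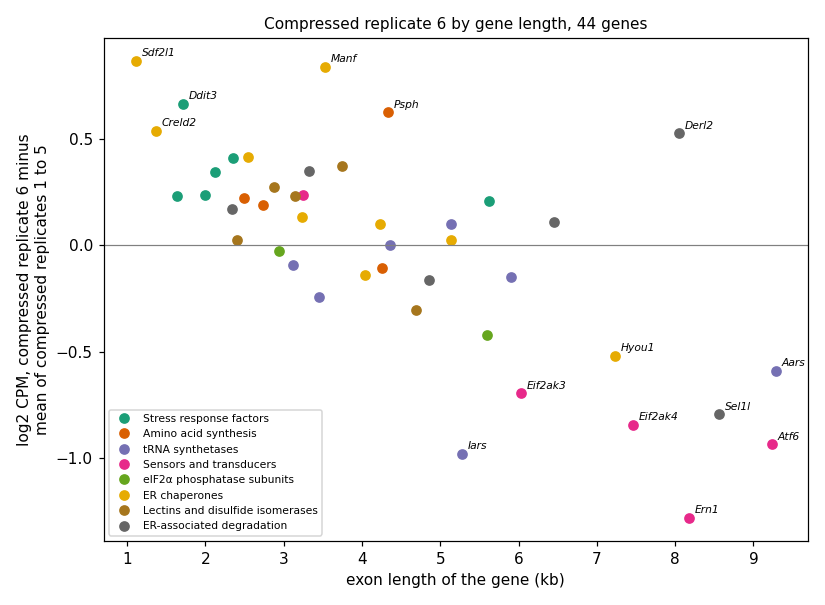
Deviation of compressed replicate 6 from the mean of compressed replicates 1 to 5, in log2 CPM, against the summed exon length of each of the 44 genes in kb, colored by role group. Short genes such as Sdf2l1 and Ddit3 lie above 0, and long genes such as Ern1, Atf6 and Sel1l lie below it. Some genes go the other way, among them Derl2 (8049 bases) at 0.53. Of the 22 longest genes 6 were above the range of the other compressed libraries, and of the 22 shortest 2 were below it.

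Without this library all 20 calls remained and 8 genes were added. Then 9 genes were called higher, where 33.8% of tested genes were, and 19 were called lower, where 32.2% of tested genes were. The 2 added higher genes were Ern1 and Sel1l, and the 6 added lower genes were Atf4, Psph, Aars, Manf, Creld2 and Derl1. With all libraries kept and the trend of each library with exon length removed, an alternative chosen after seeing the data, 10 genes were called higher (28.1% of tested genes) and 14 lower (25.8% of tested genes). The coefficient of variation of the 44 genes had a median of 8.56% in the 6 compressed libraries, 3.85% in compressed replicates 1 to 5 and 2.59% in the controls. It passed 10% for 20 genes in the 6 compressed libraries, for 1 gene (Dnajb9) once replicate 6 was left out and for 0 genes in the controls.

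**Figure D3:**
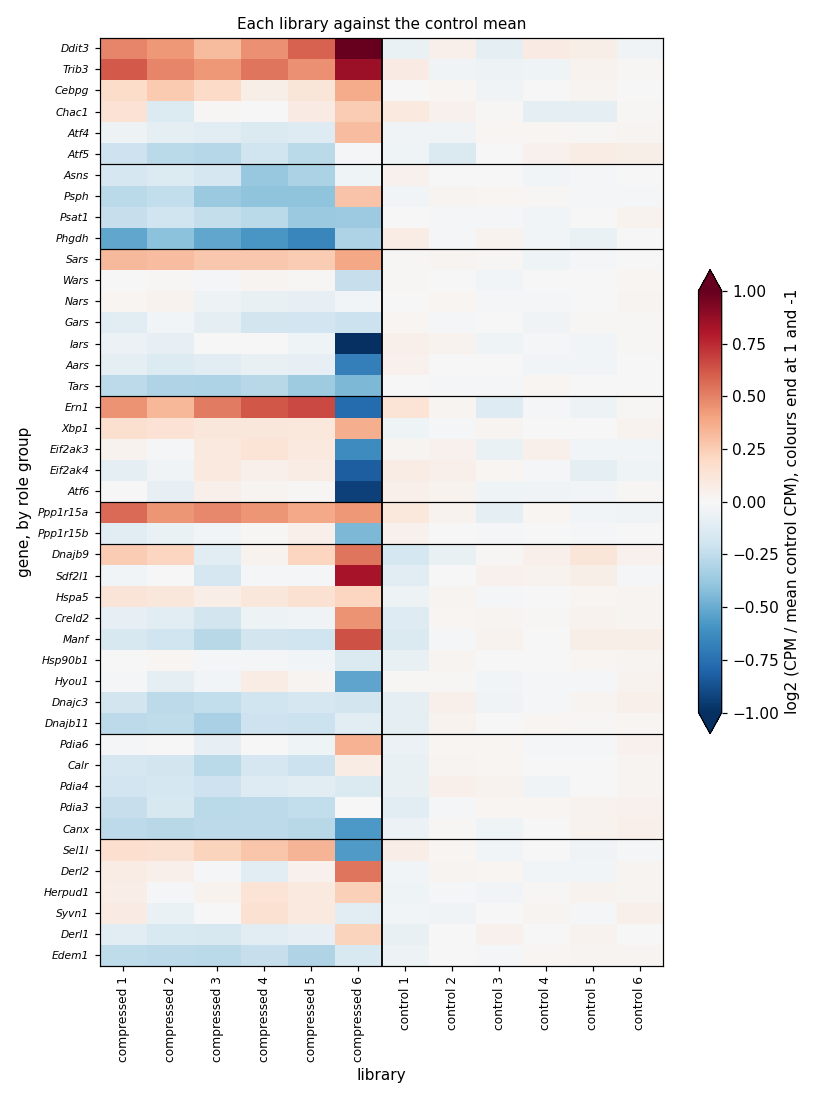
Log2 ratio of the CPM in each library to the mean CPM of the 6 controls, for the 44 genes (rows, in role groups) and the 12 libraries (columns, compressed at left and control at right). Red is above the control mean and blue below it, and the colors end at 1 and -1. In the column of compressed replicate 6, Ern1, Iars and Atf6 are bluer and Sdf2l1 and Manf redder than in any other column.

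By level per kb of exon, Hspa5 was the most abundant of the 44 transcripts in both groups, with a median of 629 under compression and 581 in controls (CPM per kb). Calr came next at 477 under compression and 544 in controls, then Hsp90b1 at 412 under compression and 420.4 in controls and Pdia3 at 301 under compression and 360.2 in controls. Of the sensors, Ern1 had a median of 6.85 under compression and 4.89 in controls, Eif2ak3 had 5.63 under compression and 5.38 in controls and Eif2ak4 had 8.296 under compression and 8.28 in controls, in CPM per kb. These 3 and Derl2 had the lowest levels of the 44 genes in both groups. Atf6 was higher, at 21.96 under compression and 21.8 in controls (CPM per kb), and the chaperones were not all abundant, with Dnajb9 at 9.43 under compression and 8.302 in controls (CPM per kb).

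Promoter sequence was examined because the genes of the 2 responses are known to be controlled through short elements near their start sites. RefSeq windows (GRCm38.p6) from 250 bases before to 50 bases after the start were found for 37 of the 44 genes. Both strands were searched for the amino acid response motif TGATGNAA, which ATF4 binds with a C/EBP partner, for TGACGTGG, a core bound by XBP1 and ATF6, and for the ER stress element, CCAAT followed after 9 bases by CCACG. TGATGNAA was present in 8 of the 37 genes (21.6%, and 4.51% of 27025 genes with a window), and the ER stress element in 8 (21.6%, and 0.137% of all genes). TGACGTGG was in 0 of the 37 and in 0.714% of all genes. No gene held both elements.

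The amino acid response matches of the genes that were called, with that of Chac1, are printed with 8 bases on either side, the motif in capitals, and the strand given is that of the letters.
Trib3, chr2:152344031-152344054, plus strand: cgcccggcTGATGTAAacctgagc
Asns, chr6:7693217-7693240, minus strand: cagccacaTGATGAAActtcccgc
Gars, chr6:55037963-55037986, minus strand: ccggtgcaTGATGAAAtagcgcag
Tars, chr15:11399658-11399681, plus strand: taaccagcTGATGCAAcgggactc
Chac1, chr2:119351041-119351064, minus strand: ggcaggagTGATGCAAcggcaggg
Of the 8 genes with this motif, Trib3 rose, Asns, Gars and Tars fell, and Chac1, Aars, Iars and Herpud1 were not called. Their median log2 fold change was -0.15 (-0.070 without compressed replicate 6), and they spanned -0.33 to 0.57. A match is a description of the letters and not a site of binding in these cells.

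The ER stress element matches are printed for the genes that were called and for Hsp90b1, whose window held 2 matches, with CCAAT and CCACG in capitals.
Hspa5, chr2:34772025-34772043, plus strand: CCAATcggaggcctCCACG
Dnajc3, chr14:118937827-118937845, plus strand: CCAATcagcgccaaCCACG
Calr, chr8:84847075-84847093, plus strand: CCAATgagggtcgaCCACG
Canx, chr11:50325800-50325818, minus strand: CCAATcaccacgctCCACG
Hsp90b1, chr10:86705638-86705656, minus strand: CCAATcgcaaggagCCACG
Hsp90b1, chr10:86705533-86705551, plus strand: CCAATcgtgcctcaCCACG
Of the 8 genes with this element, Hspa5 rose, Dnajc3, Calr and Canx fell, and Hsp90b1, Creld2, Pdia6 and Syvn1 were not called. Their median log2 fold change was -0.0085 (-0.061 without compressed replicate 6, where Creld2 was also called lower), and they spanned -0.31 to 0.13. The genes that shared an element therefore did not share a direction. The 250 bases before the start of Hspa5 are shown since this gene is the usual readout of ER stress, with the 19 bases of the element in capitals, 65 bases before the start.
Hspa5, chr2:34771840-34772089, plus strand: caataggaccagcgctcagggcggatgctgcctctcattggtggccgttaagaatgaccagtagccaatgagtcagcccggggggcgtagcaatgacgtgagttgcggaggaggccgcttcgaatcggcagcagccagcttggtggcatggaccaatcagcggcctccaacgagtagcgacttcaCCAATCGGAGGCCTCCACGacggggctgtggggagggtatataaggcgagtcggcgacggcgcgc

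Among the factors of the integrated stress response, 3 of 6 rose, 1 fell and 2 were not called, with a median log2 fold change of 0.13. Ddit3 encodes CHOP, the factor tied to cell death under lasting ER stress. It had 28.7 to 50.2 CPM (median 32.01) in compressed libraries, against 21.7 to 24.4 CPM (median 23.2) in control libraries. The groups did not overlap, and Ddit3 rose by the most of the 44 genes with all libraries (log2 fold change 0.59, SE 0.11, adjusted p = 0.000763), a fold change of 1.51. Compressed replicate 6 was the highest library at 50.2 CPM, the other 5 were at 28.7 to 34.8 CPM, and without it the gene was still called (log2 fold change 0.46, adjusted p = 4.46e-08). Its rank did not hold: without that library Ern1 (0.52), Trib3 (0.51) and Ppp1r15a (0.46) had log2 fold changes above that of Ddit3, and with the length trend removed Trib3 did. Ddit3 overlaps the tRNA synthetase gene Mars by 68 exon bases on the opposite strand, and it is not given whether the counting used strand.

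Trib3 encodes a pseudokinase that ATF4 and CHOP induce and that in turn holds ATF4 back. It had 34.9 to 46.7 CPM (median 36.9) under compression, against 24.9 to 27.3 CPM (median 25.6) in controls. Every compressed library was above every control (log2 fold change 0.57, SE 0.068, adjusted p = 1.08e-05), and the fold change was 1.49. Cebpg, a C/EBP protein that pairs with ATF4, had 59.7 to 73.97 CPM (median 65.2) under compression, against 55.97 to 58.2 CPM (median 57.1) in controls. It rose by less, with no overlap between the groups (log2 fold change 0.20, SE 0.051, adjusted p = 0.00505).

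Atf5, a factor related to ATF4 that is known for its part in the mitochondrial unfolded protein response, had 32.8 to 39.8 CPM (median 33.95) in compressed libraries, against 36.2 to 42.2 CPM (median 40.6) in control libraries. The group ranges touched because compressed replicate 6 was at 39.8 CPM, while the other 5 compressed libraries lay below all controls at 32.8 to 34.8 CPM. Atf5 fell by 13.3% (log2 fold change -0.21, SE 0.057, adjusted p = 0.00931).

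Atf4 itself was not called. It had 296 to 404 CPM (median 305) in compressed libraries, against 318 to 331 CPM (median 329) in control libraries (log2 fold change -0.025, SE 0.072, adjusted p = 0.798). Of the compressed libraries, 5 lay at 296 to 314 CPM, below every control, and replicate 6 lay above every control at 404 CPM. Without replicate 6 Atf4 was called lower (log2 fold change -0.10, adjusted p = 0.00168). ATF4 is controlled mainly at translation, so its transcript level does not give the level of the protein. Chac1, which encodes an enzyme that breaks down glutathione and is a well known ATF4 target, was not called (log2 fold change 0.065, adjusted p = 0.442), with overlapping ranges in the 2 groups.

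**Figure D4:**
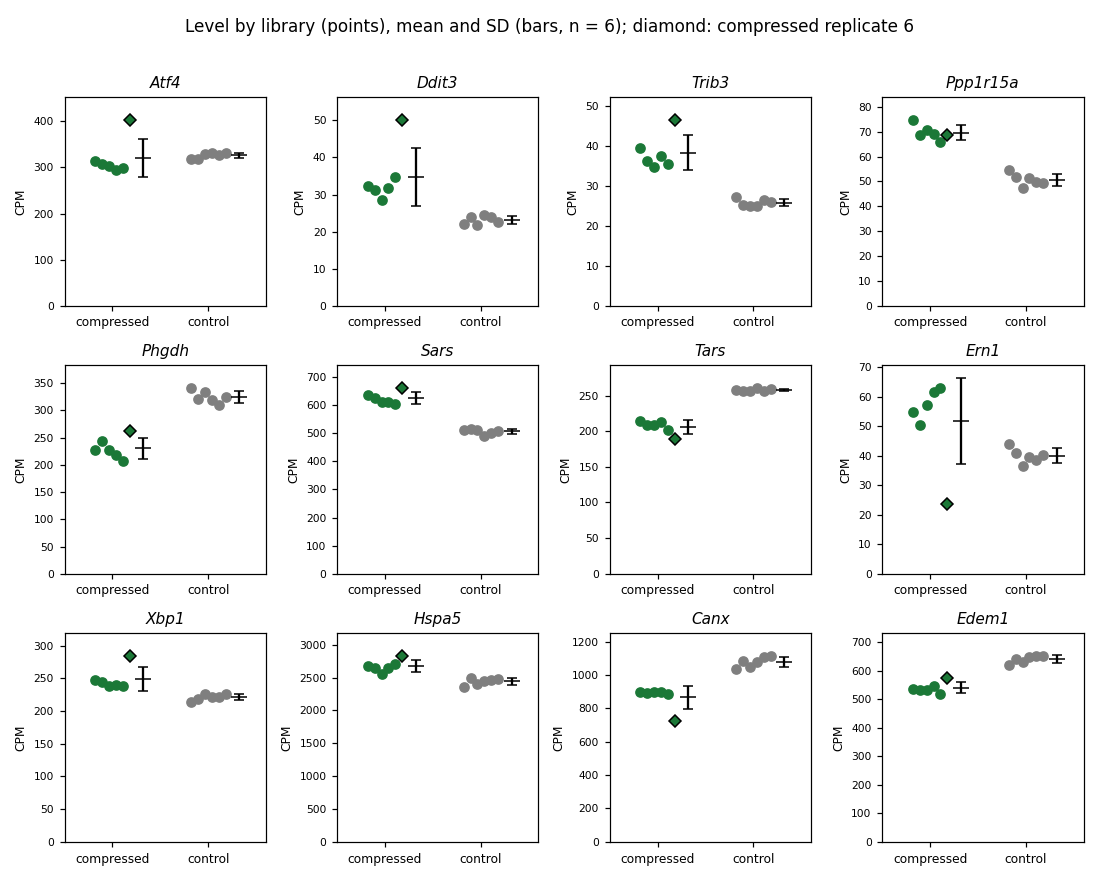
CPM in each library (points) for 12 of the 44 genes, compressed at left and control at right in each panel, with the mean and SD of the 6 libraries as bars and compressed replicate 6 as a diamond. The y axes start at 0 and differ between panels. Trib3, Ppp1r15a and Sars separate upward and Phgdh, Tars and Edem1 downward, while Atf4 and Ern1 have replicate 6 on the far side of the controls from the other 5 compressed libraries.

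The enzymes of serine and asparagine synthesis did not follow Ddit3 and Trib3: 3 of 4 fell, 0 rose and 1 was not called, with a median log2 fold change of -0.24. Phgdh encodes the enzyme that takes the first step from glycolysis to serine. It had 207 to 262 CPM (median 227) in compressed libraries, against 310.2 to 342 CPM (median 323) in control libraries. The groups did not overlap, and Phgdh fell by 29.01%, the largest decrease of the 44 genes (log2 fold change -0.49, SE 0.057, adjusted p = 8.76e-06). Phgdh has 9 near-identical copies in the genome, and their counts together were 13.5% of its own, so reads may be split among them.

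Psat1, the transaminase of the next step, had 414 to 466 CPM (median 449) under compression, against 525 to 548 CPM (median 533) in controls. It fell with no overlap between the groups (log2 fold change -0.28, SE 0.043, adjusted p = 0.000127). Asns, which makes asparagine and is the classical gene of the amino acid response, had 198 to 249.8 CPM (median 229) under compression, against 251 to 265 CPM (median 257) in controls. All compressed libraries were below all controls, though the ranges lay close together (log2 fold change -0.20, SE 0.056, adjusted p = 0.0105).

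Psph, the phosphatase of the last step to serine, was not called (log2 fold change -0.21, adjusted p = 0.1103). Compressed replicates 1 to 5 were at 61.2 to 68.4 CPM, below the controls (79.4 to 82.7 CPM (median 81.1)), and replicate 6 was above them at 98.9 CPM. Without replicate 6 it was called lower (log2 fold change -0.34, adjusted p = 2.08e-08), a change over 1.5 times as large on the log2 scale. It was also called lower with library size alone (log2 fold change -0.28, adjusted p = 0.0354). Psph shares 452 exon bases with Cct6a on the opposite strand. Cct6a had 184884 counts over the 12 libraries, against 34220 for Psph, so the Psph value may hold reads of Cct6a.

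The cytosolic tRNA synthetases also differed among themselves: 1 of 7 rose, 2 fell and 4 were not called, with a median log2 fold change of -0.14. Without compressed replicate 6 the median was -0.039, with 1 called higher and 3 lower, where 33.8% and 32.2% of all tested genes were. Sars, which charges the serine tRNA, rose in the libraries in which Phgdh and Psat1 fell. It had 605 to 662 CPM (median 619) in compressed libraries, against 491 to 517 CPM (median 509) in control libraries. Sars was higher in every compressed library than in any control and rose by 23.5% (log2 fold change 0.30, SE 0.039, adjusted p = 2.09e-05).

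Tars, which charges the threonine tRNA, had 189 to 215 CPM (median 209) under compression, against 256 to 261 CPM (median 257) in controls. It had the narrowest spread of the 44 genes in the controls, with a coefficient of variation of 0.753%, below the 0.987% expected from counting alone. Tars fell with no overlap (log2 fold change -0.33, SE 0.041, adjusted p = 1.92e-05). Gars, the glycyl enzyme, had 301 to 344 CPM (median 316) under compression, against 342 to 355 CPM (median 352) in controls. Its ranges overlapped at 1 compressed library, and it fell by 9.06% (log2 fold change -0.14, SE 0.042, adjusted p = 0.0168). The call of Gars was lost with no low-count filter (adjusted p = 0.0803) and with the replicate block (adjusted p = 0.0631).

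Aars, the alanyl enzyme, was below the controls in every compressed library but was not called (log2 fold change -0.18, adjusted p = 0.113). Compressed replicate 6 was at 199 CPM and the other 5 at 292 to 303 CPM, with the controls at 313 to 329 CPM (median 321). Without replicate 6 the difference was smaller and called lower (log2 fold change -0.10, adjusted p = 0.00162), and it was also called lower with the length trend removed (log2 fold change -0.16, adjusted p = 0.000493) and with library size alone (log2 fold change -0.24, adjusted p = 0.0429). Iars, for isoleucine, was at 172 CPM in replicate 6, against 328 to 347 CPM in the other compressed libraries, and was not called with or without it (log2 fold change -0.16, adjusted p = 0.364 with it, and log2 fold change -0.039, adjusted p = 0.220 without it). Wars, for tryptophan (log2 fold change -0.028, adjusted p = 0.661), and Nars, for asparagine (log2 fold change -0.028, adjusted p = 0.5698), were not called. Without replicate 6 the log2 fold change of Wars was 0.0072, and Wars was not called either.

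Of the 13 other cytosolic tRNA synthetases, 7 fell, 1 rose and 5 were not called, with a median log2 fold change of -0.14. Without compressed replicate 6 the median was -0.15, with 2 called higher and 8 lower, where 33.8% and 32.2% of all tested genes were. Vars, for valine, had 347 to 462 CPM (median 448) in compressed libraries, against 536 to 555 CPM (median 542) in control libraries (log2 fold change -0.34, SE 0.064, adjusted p = 0.000694). Kars, for lysine, had 153 to 164 CPM (median 162) in compressed libraries, against 198 to 204 CPM (median 202) in control libraries (log2 fold change -0.33, SE 0.036, adjusted p = 4.65e-06). Hars, for histidine, had 149 to 176 CPM (median 151) in compressed libraries, against 178 to 191 CPM (median 185) in control libraries (log2 fold change -0.24, SE 0.049, adjusted p = 0.000974). All 3 fell with no overlap between the groups. Dars, for aspartate, went the other way and rose (log2 fold change 0.21, SE 0.044, adjusted p = 0.00127), with 158 to 181 CPM (median 175) in compressed libraries, against 143 to 151 CPM (median 149) in control libraries.

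Among the sensors and their direct messenger, 1 of 5 rose, 0 fell and 4 were not called. Xbp1 encodes the factor whose messenger IRE1 splices. It had 238 to 285 CPM (median 242) under compression, against 214 to 226 CPM (median 221) in controls. All compressed libraries were above all controls, and total Xbp1 rose by 12.4% (log2 fold change 0.17, SE 0.050, adjusted p = 0.0131). The call was lost when libraries were scaled by size alone (adjusted p = 0.0845) and with no low-count filter (adjusted p = 0.0554). Counts per gene do not separate the spliced from the unspliced messenger, so they say nothing of IRE1 activity.

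Ern1 encodes IRE1, the kinase and nuclease of that branch. Compressed replicates 1 to 5 had 50.4 to 63.1 CPM, against 36.6 to 44.1 CPM (median 39.99) in the controls. Replicate 6 was far below both at 23.5 CPM, so that the full compressed range was 23.5 to 63.1 CPM (median 56.02). Ern1 was not called with all libraries (log2 fold change 0.37, SE 0.18, adjusted p = 0.1096) and was called higher without replicate 6 (log2 fold change 0.52, adjusted p = 3.73e-08). With the length trend removed and all libraries kept it was also called higher (log2 fold change 0.38, adjusted p = 0.0172). At 8173 exon bases Ern1 is one of the longer genes of the list.

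The other sensors showed the same low value in replicate 6 but no call without it. Atf6, the ER membrane factor released by cleavage in the Golgi, had 106 to 209.6 CPM (median 203) in compressed libraries, against 196 to 209 CPM (median 201) in control libraries (log2 fold change -0.12, SE 0.13, adjusted p = 0.4997). Eif2ak3, which encodes PERK, had 20.96 to 35.6 CPM (median 33.9) in compressed libraries, against 30.8 to 33.5 CPM (median 32.4) in control libraries (log2 fold change -0.024, SE 0.10, adjusted p = 0.867). Eif2ak4, which encodes GCN2, had 34.7 to 65.8 CPM (median 61.9) in compressed libraries, against 57.4 to 64.8 CPM (median 61.7) in control libraries (log2 fold change -0.091, SE 0.12, adjusted p = 0.5804). Without replicate 6 their log2 fold changes were 0.00055, 0.068 and 0.018, and none was called.

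Ppp1r15a and Ppp1r15b encode the subunits that direct a phosphatase to eIF2α and so end the translational block. Ppp1r15a (GADD34) is the subunit that stress induces. It had 65.9 to 74.9 CPM (median 68.9) in compressed libraries, against 47.4 to 54.5 CPM (median 50.6) in control libraries. No compressed library was within the control range, and Ppp1r15a rose by 37.3% with the smallest adjusted p of the 44 genes (log2 fold change 0.46, SE 0.046, adjusted p = 2.60e-06). Replicate 6 lay inside the range of the other compressed libraries, and the log2 fold change without it was 0.46. Ppp1r15b (CReP), the subunit that is present without stress, was not called (log2 fold change -0.090, adjusted p = 0.324, and log2 fold change -0.030 without replicate 6). The difference between the 2 subunits was not itself tested.

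The translation factors and kinases around eIF2α were mostly lower. Of 10 genes for other eIF2 kinases, eIF2 and its exchange factor eIF2B, 6 fell, 0 rose and 4 were not called, with a median log2 fold change of -0.29. Of all tested genes 24.5% were higher and 21.9% lower. Without compressed replicate 6 the median was -0.26, with 1 called higher and 8 lower, where 33.8% and 32.2% of all tested genes were. Eif2b4, a subunit of eIF2B, had 29.5 to 39.7 CPM (median 33.7) under compression, against 45.9 to 48.6 CPM (median 47.6) in controls (log2 fold change -0.50, SE 0.066, adjusted p = 2.61e-05). Eif2b1, another subunit, had 40.5 to 53.9 CPM (median 46.00) under compression, against 56.96 to 68.7 CPM (median 61.03) in controls (log2 fold change -0.41, SE 0.067, adjusted p = 0.000213). Eif2ak2, the kinase PKR that responds to double-stranded RNA, had 108 to 159 CPM (median 139.7) under compression, against 168 to 179 CPM (median 174) in controls (log2 fold change -0.34, SE 0.075, adjusted p = 0.00212). None of these 3 genes overlapped between the groups.

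Of the chaperones of the ER lumen 1 of 9 rose, 2 fell and 6 were not called, with a median log2 fold change of -0.024. Without compressed replicate 6 the median was -0.046, with 1 called higher and 4 lower, where 33.8% and 32.2% of all tested genes were. Hspa5 encodes BiP, the main Hsp70 of the ER and the common marker of the unfolded protein response. It had 2554 to 2836 CPM (median 2661) under compression, against 2352 to 2491 CPM (median 2459) in controls. All compressed libraries were the higher ones, and Hspa5 rose by 9.66% (log2 fold change 0.13, SE 0.040, adjusted p = 0.0154). This call was lost with library size alone (log2 fold change 0.070, adjusted p = 0.162), with no low-count filter (adjusted p = 0.0993) and with the replicate block (adjusted p = 0.0617).

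The J-domain partners of BiP went the other way where they were called. Dnajb11 had 183 to 211 CPM (median 195) in compressed libraries, against 214 to 235 CPM (median 232) in control libraries. Dnajc3, which also restrains PERK, had 119.7 to 128 CPM (median 126) in compressed libraries, against 135 to 149 CPM (median 145) in control libraries. Neither overlapped between the groups, and both fell, Dnajb11 with log2 fold change -0.23 (SE 0.045, adjusted p = 0.000859) and Dnajc3 with log2 fold change -0.21 (SE 0.041, adjusted p = 0.000823). Dnajb9, a target of spliced XBP1, was not called (log2 fold change 0.21, adjusted p = 0.0872), but was called higher with the length trend removed (log2 fold change 0.18, adjusted p = 0.0388) and without compressed replicate 3 (log2 fold change 0.26, adjusted p = 0.0233). Not called either were Hsp90b1, the Hsp90 of the ER (log2 fold change -0.032, adjusted p = 0.569), and Hyou1, which exchanges nucleotide on BiP (log2 fold change -0.084, adjusted p = 0.436). Without compressed replicate 6 the log2 fold change of each was -0.011.

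Sdf2l1, Manf and Creld2, small proteins of the ER that stress is known to induce, had replicate 6 far above all other libraries. Manf was at 460.4 CPM there, against 245 to 266 CPM in the other compressed libraries and 268 to 308 CPM (median 300.3) in controls. Sdf2l1 was at 332 CPM in replicate 6, against 166 to 188 CPM in the other compressed libraries and 173 to 195 CPM (median 189) in controls. Creld2 was at 209 CPM in replicate 6, against 134 to 149 CPM in the others and 140.0 to 157 CPM (median 156) in controls. With all libraries none of the 3 was called, with log2 fold changes of -0.024 for Manf, 0.14 for Sdf2l1 and 0.015 for Creld2. Without replicate 6 Manf (log2 fold change -0.20, adjusted p = 4.04e-05) and Creld2 (log2 fold change -0.093, adjusted p = 0.0262) were called lower, and Sdf2l1 was not called (log2 fold change -0.046, adjusted p = 0.284).

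The lectin chaperones and disulfide isomerases were mostly lower: 4 of 5 fell, 0 rose and 1 was not called, with a median log2 fold change of -0.16. Of all tested genes 24.5% were higher and 21.9% lower. With 1 library left out, 3 to 4 of the 5 were called. Canx encodes calnexin, the membrane lectin that holds new glycoproteins for folding. It had 726 to 901 CPM (median 895) in compressed libraries, against 1038 to 1117 CPM (median 1082) in control libraries. The groups did not overlap, and Canx fell by 19.6% (log2 fold change -0.31, SE 0.057, adjusted p = 0.000432). Compressed replicates 1 to 5 lay within 888 to 901 CPM, and without replicate 6 (at 726 CPM) the decrease was still called (log2 fold change -0.27, adjusted p = 2.00e-08).

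Calr, the soluble lectin calreticulin, had 1289 to 1635 CPM (median 1374) under compression, against 1475 to 1579.9 CPM (median 1567) in controls. Its ranges overlapped through replicate 6, the highest compressed library at 1635 CPM (log2 fold change -0.15, SE 0.056, adjusted p = 0.04197). The call was lost on leaving out any one of 10 of the 12 libraries (adjusted p = 0.0679 to 0.0919), and kept without compressed replicate 6 (log2 fold change -0.20, adjusted p = 3.34e-06) or control replicate 1. Pdia3, the isomerase that works with both lectins, had 924 to 1115 CPM (median 945) under compression, against 1037 to 1149 CPM (median 1131) in controls. Pdia3 fell (log2 fold change -0.19, SE 0.054, adjusted p = 0.00934), and the groups overlapped only through replicate 6 at 1115 CPM, with the other 5 compressed libraries at 924 to 996 CPM (log2 fold change -0.24, adjusted p = 1.25e-06 without replicate 6). Pdia4, another isomerase, had 300.0 to 319.8 CPM (median 309.9) under compression, against 328 to 358 CPM (median 349) in controls, without overlap (log2 fold change -0.16, SE 0.039, adjusted p = 0.00426). Pdia6 was not called (log2 fold change 0.041, adjusted p = 0.648), nor was it without replicate 6 (log2 fold change -0.030).

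Of 20 other genes for folding and disulfide formation in the ER, 5 rose, 4 fell and 11 were not called, and their median log2 fold change was -0.0084. Without compressed replicate 6, 6 were called higher and 9 lower, where 33.8% and 32.2% of all tested genes were, with a median of -0.037. The 3 largest of these increases, in Ero1l, P4hb and Fkbp14, were larger than any among the 44 genes. Ero1l, which encodes the oxidase that recharges the disulfide isomerases, had 1339 to 1785 CPM (median 1628) in compressed libraries, against 305 to 376 CPM (median 329.9) in control libraries. The groups were well apart, and Ero1l rose 4.798-fold (log2 fold change 2.26, SE 0.077, adjusted p = 1.74e-10). P4hb, the founding disulfide isomerase and a subunit of the collagen prolyl hydroxylase, had 3671 to 3936 CPM (median 3796) in compressed libraries, against 1768 to 1969.7 CPM (median 1827) in control libraries, a rise of 2.06-fold (log2 fold change 1.04, SE 0.042, adjusted p = 7.10e-10). Fkbp14, a prolyl isomerase that acts on procollagen, had 4.88 to 6.87 CPM (median 6.09) in compressed libraries, against 3.14 to 3.39 CPM (median 3.300) in control libraries (log2 fold change 0.88, SE 0.081, adjusted p = 9.77e-07).

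The 4 folding genes that fell were Fkbp11, Txndc5, Tmx1 and Ero1lb, the other ER oxidase. Fkbp11, a prolyl isomerase of secretory cells, had 17.4 to 33.5 CPM (median 18.04) under compression, against 25.9 to 29.2 CPM (median 27.4) in controls (log2 fold change -0.42, SE 0.15, adjusted p = 0.0292). Its highest library was replicate 6 at 33.5 CPM, above all controls, and without it the other 5 were at 17.4 to 18.7 CPM (log2 fold change -0.62, adjusted p = 2.50e-11). Txndc5, a disulfide isomerase, had 204 to 231 CPM (median 223) under compression, against 255 to 264 CPM (median 260.0) in controls (log2 fold change -0.23, SE 0.040, adjusted p = 0.0002799). Tmx1, a membrane thioredoxin, had log2 fold change -0.22 (adjusted p = 0.00733), and Ero1lb had log2 fold change -0.21 (adjusted p = 0.00212). P4hb and Ero1l thus went up while Pdia3, Pdia4 and Canx went down in the same libraries.

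In ER-associated degradation 1 of 6 genes fell, 0 rose and 5 were not called, with a median log2 fold change of 0.063. Without compressed replicate 6 the median was 0.030, with 1 called higher and 2 lower, where 33.8% and 32.2% of all tested genes were. Edem1 encodes a protein that draws misfolded glycoproteins out of the folding cycle. It had 519 to 575 CPM (median 535) under compression, against 618 to 653 CPM (median 645) in controls. Edem1 was lower in every compressed library and fell by 15.7% (log2 fold change -0.25, SE 0.039, adjusted p = 0.000162). Herpud1, an ATF6 and ATF4 target that assembles the ligase complex, was not called (log2 fold change 0.096, adjusted p = 0.114).

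Sel1l and Syvn1 form the core of that ligase complex. Sel1l was at 141 CPM in replicate 6, against 231 to 263 CPM in the other compressed libraries and 203 to 217 CPM (median 206) in controls. It was not called with all libraries (log2 fold change 0.13, adjusted p = 0.3999) and was called higher without replicate 6 (log2 fold change 0.23, adjusted p = 5.84e-06) and with the length trend removed (log2 fold change 0.15, adjusted p = 0.0363). Syvn1 was not called (log2 fold change 0.030, adjusted p = 0.661). Of the derlins, which take part in the passage of substrates out of the ER, Derl1 was called lower only without replicate 6 (log2 fold change -0.12, adjusted p = 0.0006597). Derl2 was not called in either case (log2 fold change 0.11, adjusted p = 0.337 with all libraries, and log2 fold change 0.0067 without replicate 6).

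Of 26 other genes of ER degradation and translocation that were tested, 4 rose, 4 fell and 18 were not called, with a median log2 fold change of 0.045. Without compressed replicate 6 the median was -0.019, with 7 called higher and 12 lower, where 33.8% and 32.2% of all tested genes were. Derl3 had too few counts to be tested. Kdelr3, a receptor that returns ER proteins from the Golgi, had 1.67 to 2.71 CPM (median 2.100) in compressed libraries, against 0.728 to 1.21 CPM (median 0.911) in control libraries (log2 fold change 1.14, SE 0.15, adjusted p = 2.92e-05). Edem2, the mannosidase that starts the trimming of misfolded glycoproteins, had 75.6 to 93.5 CPM (median 81.2) in compressed libraries, against 54.4 to 57.8 CPM (median 55.2) in control libraries (log2 fold change 0.57, SE 0.051, adjusted p = 8.00e-07). Edem2 thus rose in the libraries in which its relative Edem1 fell, although the difference between them was not tested. Sec61g, a subunit of the translocation channel, had 66.3 to 136 CPM (median 71.4) in compressed libraries, against 57.1 to 60.8 CPM (median 58.6) in control libraries (log2 fold change 0.47, SE 0.15, adjusted p = 0.0225). Its highest library was replicate 6, and without it the log2 fold change was 0.26 (adjusted p = 1.21e-06).

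Of the 8 other ER transducers and regulators, 1 rose, 2 fell and 5 were not called. Without compressed replicate 6, 2 were called higher and 3 lower, where 33.8% and 32.2% of all tested genes were. Crebrf, a negative regulator of the ER-bound factor CREB3, had 10.8 to 20.03 CPM (median 18.4) in compressed libraries, against 11.1 to 14.1 CPM (median 13.1) in control libraries (log2 fold change 0.43, SE 0.12, adjusted p = 0.0119). Replicate 6 was below every control at 10.8 CPM, and the other 5 compressed libraries were above them all (log2 fold change 0.53, adjusted p = 5.40e-08 without replicate 6). Traf2, the adaptor that binds activated IRE1, fell with no overlap (log2 fold change -0.24, SE 0.040, adjusted p = 0.000262). Mbtps2, the second protease that cleaves ATF6, was at the threshold (log2 fold change -0.22, SE 0.086, adjusted p = 0.0497), and its log2 fold change was -0.15 without replicate 6 (adjusted p = 0.000324).

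Other genes linked to ATF4 moved in both directions. Of 26 such genes 24 were tested, of which 11 rose, 7 fell and 6 were not called, with a median log2 fold change of 0.075. Of all tested genes 24.5% were higher and 21.9% lower. Without compressed replicate 6 the median was 0.084, with 12 called higher and 10 lower, where 33.8% and 32.2% of all tested genes were. Vldlr and Fgf21 had too few counts. Atf3, a stress factor induced downstream of ATF4 and by many other signals, had 147 to 176 CPM (median 155) in compressed libraries, against 53.9 to 66.3 CPM (median 61.8) in control libraries. Atf3 was well apart in the 2 groups and rose 2.56-fold (log2 fold change 1.36, SE 0.063, adjusted p = 1.87e-09). Slc7a11, the cystine transporter, had 99.3 to 217 CPM (median 187) in compressed libraries, against 76.6 to 89.00 CPM (median 84.01) in control libraries (log2 fold change 1.06, SE 0.14, adjusted p = 3.64e-05). Stc2, a secreted glycoprotein, had 15.8 to 17.6 CPM (median 16.3) in compressed libraries, against 7.06 to 8.58 CPM (median 8.26) in control libraries (log2 fold change 1.04, SE 0.057, adjusted p = 7.82e-09).

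The 7 of these genes that fell were Slc7a5, Shmt2, Jdp2, Slc1a5, Slc7a1, Slc38a2 and Mthfd2. Slc7a5, the light chain of the transporter for large neutral amino acids, had 108 to 145 CPM (median 141) under compression, against 242 to 254 CPM (median 247) in controls. All compressed libraries were well below the controls (log2 fold change -0.86, SE 0.067, adjusted p = 2.02e-07). Its heavy chain, Slc3a2, was not called (log2 fold change 0.10, adjusted p = 0.138), but was called higher with the length trend removed (log2 fold change 0.11, adjusted p = 0.02795). Shmt2, which takes serine into mitochondrial one-carbon metabolism, had 284 to 336 CPM (median 317) under compression, against 524 to 539 CPM (median 531) in controls (log2 fold change -0.75, SE 0.045, adjusted p = 1.58e-08). Jdp2, a factor related to ATF3, had 90.01 to 98.3 CPM (median 94.6) under compression, against 149 to 162 CPM (median 158) in controls (log2 fold change -0.73, SE 0.040, adjusted p = 6.48e-09).

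The glutamine transporter Slc1a5 had 305 to 356 CPM (median 338) under compression, against 477 to 499.9 CPM (median 485) in controls (log2 fold change -0.53, SE 0.044, adjusted p = 4.19e-07). The remaining decreases were Slc7a1, the arginine transporter (log2 fold change -0.42, adjusted p = 0.0353, and log2 fold change -0.29 without compressed replicate 6), Slc38a2, a transporter of small neutral amino acids (log2 fold change -0.25, adjusted p = 0.0136), and Mthfd2, a mitochondrial folate enzyme (log2 fold change -0.21, adjusted p = 0.00152). Transport and one-carbon genes of this list also rose, among them Slc7a11 and Aldh1l2, a mitochondrial folate enzyme (log2 fold change 0.74, adjusted p = 0.00558). Aldh1l2 was at 62.1 CPM in replicate 6, against 149 to 172 CPM in the other compressed libraries and 81.3 to 100.1 CPM (median 83.2) in controls. Together with Phgdh, Psat1 and Asns, the 7 that fell were ATF4-linked genes that were lower in the libraries in which Ddit3, Trib3 and Atf3 were higher.

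**Figure D5:**
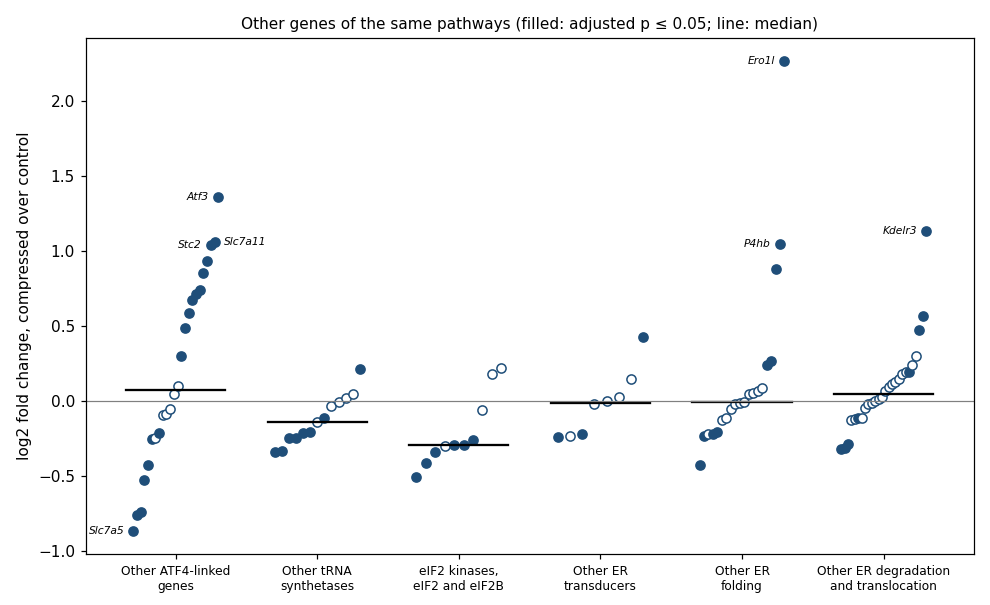
Log2 fold change, compressed over control, of the 101 tested genes of the same pathways outside the 44, in 6 lists along the x axis, each point 1 gene and each black line the median of its list. Filled points had an adjusted p of 0.05 or less, and genes above 1 and below -0.8 are named. Ero1l is the highest point at 2.26 and Slc7a5 the lowest at -0.86.

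Over all 6 lists, 22 of these 101 genes rose, 30 fell and 49 were not called, where 24.5% of all tested genes were higher and 21.9% lower, with a median log2 fold change of -0.013. Without compressed replicate 6, 30 were called higher and 50 lower, where 33.8% and 32.2% of all tested genes were, with a median of -0.042.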

How the data were processed

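RNA was sequenced from 6 compressed and 6 control samples of RAW264.7 cells as directional, mRNA-enriched libraries. The submitters' processing notes name STAR 2.7.2 and the GRCm39 assembly, and the authors deposited raw counts for each Ensembl gene with a column for every library. For the counting program, its strand setting and the annotation release the entry is: not given in the sources used here. Names and exon lengths came by ID from GENCODE M21 on GRCm38 (51948 of 56941 IDs, with 99.5% of the counts).

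Counts were filtered with filterByExpr (minimum count 10), scaled by TMM and tested with the quasi-likelihood F test of edgeR 4.0.16 in R 4.3.3 with condition as the only term. P-values were adjusted by the Benjamini-Hochberg method over all 15001 tested genes and called at 0.05 or less. The standard error of a log2 fold change is its size divided by the root of the F statistic. CPM uses TMM-scaled library sizes. Principal components used log2 CPM with a prior count of 2. Counting error expected from the mean count was 0.321% to 3.99% of the level over the 44 genes in controls, where the observed coefficient of variation was at or below it for 5 genes and over 2 times it for 28.

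The 44 genes, the lists of other pathway genes and the tests were chosen with earlier results of these data known. Full values are given for up to 4 called genes of each role group with the largest change, for called genes against the majority of their group, and for the sensors, Atf4, Xbp1 and Ddit3. From each further list up to 3 called genes with the largest change and those against its majority are named; Slc3a2 and Aldh1l2 were added after their values were seen. Tables and figures were made in Python 3.11.15 with pandas 2.3.3, NumPy 2.4.6 and matplotlib 3.10.9, and near-identical copies (95% identity over 200 bases) were found with BLAST+ 2.17.0. The procedure was tested on simulated data.

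Alternative fits used DESeq2 1.42.0, RLE factors or library size alone for scaling, no filter or a mean normalized count above 50, the replicate number as a block, a threshold of 0.01, 11 of the 12 libraries at a time, and removal of each library's trend of log2 CPM with exon length (lowess, span 0.3), the last chosen after seeing the data. A planned description of protein ends was not made.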

Additional observations from a re-analysis of the deposited data

Results flagged for a closer look

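Each of the 44 genes was examined in the 6 compressed and in the 6 control libraries for a highest or lowest library whose gap to its nearest neighbor was, as a share of the whole range, above the critical value of Dixon's test for 6 values. This was met in 29 of 88 groups, where chance gives about 1 in 20, and the genes share libraries and are not independent. The rate over all tested genes was not computed. Compressed replicate 6 lay outside the other compressed libraries for 82.0% of all tested genes. The median size of its log2 deviation was 0.258 for the 44 genes and 0.450 for all tested genes, so standing apart was not particular to the 44. Compressed replicate 6 was the library concerned 24 times, 12 times as the highest and 12 times as the lowest, and control replicate 1 was concerned 5 times.

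Compressed replicate 6 was the highest compressed library for Manf (gap over range 0.904), Sdf2l1 (0.869), Pdia6 (0.829), Atf4 (0.829), Psph (0.81), Derl1 (0.81), Creld2 (0.805), Xbp1 (0.792), Derl2 (0.763), Calr (0.731), Ddit3 (0.715) and Atf5 (0.714). This group holds the ER folding genes Manf, Sdf2l1, Pdia6, Creld2 and Calr and 3 factors of the integrated stress response. It was the lowest compressed library for Canx (0.926), Iars (0.892), Aars (0.887), Wars (0.861), Atf6 (0.818), Eif2ak3 (0.749), Eif2ak4 (0.744), Sel1l (0.737), Hsp90b1 (0.714), Ern1 (0.68), Hyou1 (0.668) and Ppp1r15b (0.656). These include all 4 sensor genes of the list and the ER folding genes Canx, Hsp90b1 and Hyou1, so folding genes lay on both sides. Across the 44 genes the deviation of this library had a rank correlation of -0.67 with exon length.

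Control replicate 1 was the lowest control for Creld2 (0.835), Dnajb11 (0.745), Calr (0.72) and Hsp90b1 (0.682), all of them ER proteins of folding, and the highest for Ppp1r15b (0.736). Creld2 had 140.0 CPM there, against 154 CPM in the nearest control.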

How the results depend on the processing

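DESeq2 and RLE factors left every one of the 44 genes on its side of the threshold. The counts were 7 higher and 13 lower in all 12 libraries. They were 5 and 15 with library size alone (3079 and 4050 of all 15001 tested genes), 5 and 11 without a filter on low counts (3600 and 3156 of 31565), 7 and 12 with a mean count over 50 (3077 and 2912 of 11709), and 5 and 10 at an adjusted p of 0.01 (2785 and 2426 of 15001). Over the 12 fits that leave out 1 library they were 7 to 9 higher and 12 to 19 lower, where 3326 to 5117 and 2999 to 4864 of all tested genes were.

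In the group of the sensors and Xbp1, the 1 gene called (Xbp1) became 0 with library size alone, without a low-count filter and at an adjusted p of 0.01, 2 with the length trend removed, and 1 to 2 with 1 library left out. ER chaperones called (3) were 3 to 5 with 1 library left out. ER degradation genes called (1) were 2 with the length trend removed and 1 to 3 with 1 library left out. Other ER transducers called (3) were 5 with the length trend removed, 1 at an adjusted p of 0.01 and 2 to 5 with 1 library left out. Other ER folding genes called (9) were 8 to 15, other ER degradation and translocation genes (8) were 8 to 19, and all other pathway genes (52) were 48 to 80 with 1 library left out. The highest of each was without compressed replicate 6. Over the same fits 6385 to 9981 of all tested genes were called, and there too the highest count was without that library. The log2 fold change of Creld2 was -0.093 to 0.052 with 1 library left out, with the negative call without compressed replicate 6.

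Whether samples with the same replicate number were grown together is not given in the sources used here. Same-numbered libraries correlated at -0.12 to 0.040 after removal of group means. No compressed library correlated best with the control of its own number. With 6 libraries in each group these values cannot decide whether the numbers pair the samples. With the replicate block 6 genes were called higher and 11 lower (3299 and 3094 of 15001 tested genes), and Gars, Hspa5 and Calr were no longer called.

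Counts of transcripts give no measure of protein, of eIF2α phosphorylation or of Xbp1 splicing, and small changes near 10% were called or not depending on the setting.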
